A study of Arabidopsis thaliana with 12 samples.

Results

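Late embryogenesis abundant (LEA) protein genes of Arabidopsis thaliana were followed in etiolated seedlings of rb10 and wild type (WT). The members were 49 loci listed by protein class. Each of 34 loci was matched to at least 1 probe set, among 17481 probe sets with a gene and 38408 in all. The loci were chosen by protein class with their log2 signal in the 4 groups already known from earlier work on these arrays, so the differences below describe the family and are no independent test of it.

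Whole seedlings of ecotype Col-0 were raised for 5 days in darkness on diluted MS medium that held no sucrose, and RNA from pools of them was put on 12 Affymetrix arrays. The 4 groups of 3 arrays were rb10 in the dark, WT in the dark, rb10 after a further 1 h of white light and WT after the same light. No label describes rb10 beyond its name. It is known as a line mutated in RAPTOR1B, which encodes a partner protein of the growth kinase TOR, and it was the only mutant line among the samples. The labels call the arrays biological replicates, and p-values measure the spread between these pools.

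LEA proteins are mostly small, very hydrophilic proteins without a fixed fold when dissolved, which build up in the last stage of seed maturation as the embryo dries. Many are made again in vegetative tissue under drought, cold or abscisic acid (ABA), and they are known for protecting membranes and enzymes during water loss. In Arabidopsis seeds the ABA-linked factors ABI3 and ABI5 turn many of them on, and their transcripts normally decline once the seedling is established.

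The list held 17 genes of class LEA_4, whose proteins form amphipathic helices on drying (14 measured), 10 dehydrins, which bind membranes through lysine-rich segments (6 measured), 6 seed maturation proteins or SMP (4 measured) and 4 of class LEA_3, small proteins sent to organelles (2 measured). It also held 3 genes each of LEA_1 (2 measured) and of LEA_2 (2 measured), LEA_2 being the class with a folded, globular domain. The small classes PvLEA18, named after a bean gene, and AtM, found in maturing seeds, had 2 genes each, all measured, while the 2 LEA_5 genes EM1 and EM6 were not paired and are not analysed here. Also not analysed here were RAB18, ERD10, ERD14, XERO1, SAG21, LEA14, LEA7, ECP63, ECP31, RAB28, LEA4-5, UNE15 and AT1G02820. Of the 34 measured members, 6 lay in the lowest 25% of all tested probe sets by mean signal, COR15A, COR15B, AT4G13230, AT5G44310, AT5G53270 and AT3G53770. The deposited table holds no detection call, so whether a low signal is a transcript or array background cannot be told.

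The array labelled rb10 dark replicate 3 went against its label. RAPTOR1 (AT3G08850), which is also called RAPTOR1B, read 11.06, 11.08 and 11.60 on the 3 arrays labelled rb10 dark, against 11.84, 11.66 and 11.63 in WT dark, and 10.90, 10.89 and 11.13 in rb10 light, against 11.62, 11.69 and 11.58 in WT light. The third rb10 dark reading lay just under the WT dark arrays and apart from the other two. The difference, rb10 minus WT, was -0.64 (SE 0.11, adjusted p = 0.00775) without replicate 3 and -0.46 (SE 0.15, adjusted p = 0.255) with it in the dark, and after light it was -0.66 (SE 0.15, adjusted p = 0.0113). Where the mutation lies relative to this probe set is not given in the sources used here. Across the 17481 tested probe sets the array correlated with WT dark at a mean r of 0.99089 and with the other rb10 dark arrays at 0.97964, whereas rb10 dark replicates 1 and 2 correlated with WT dark at 0.97915 and 0.97847. These are correlations across genes, which are not independent. Differences that use the dark rb10 arrays are therefore given with that array and without it, and without it the group has 2 arrays, assumed to vary like the other groups. A call made only without it rests on leaving out an array after seeing its values. Median signal lay between 6.72 and 6.91 over the 12 arrays. It was 6.72 to 6.82 on the WT arrays and 6.78 on rb10 dark replicate 3. The other rb10 arrays had higher medians, 6.88 to 6.91.

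The heat map of the members shows the pattern described below, which is that many LEA_4 genes, the LEA_1 and AtM genes and the dehydrins LEA and LTI30 read lower in rb10, DI21 and both LEA_2 genes read higher, and no SMP gene was called. Each difference is a log2 difference (rb10 minus WT, or light minus dark) and carries the standard error (SE) that limma fitted, with n = 3 arrays a group unless an array is left out. Within a comparison p-values were adjusted by Benjamini-Hochberg over all 17481 tested probe sets. A gene is called at an adjusted p under 0.05. In RNA from whole seedlings, fewer cells of a type and less RNA per cell cannot be told apart.

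**Figure D1:**
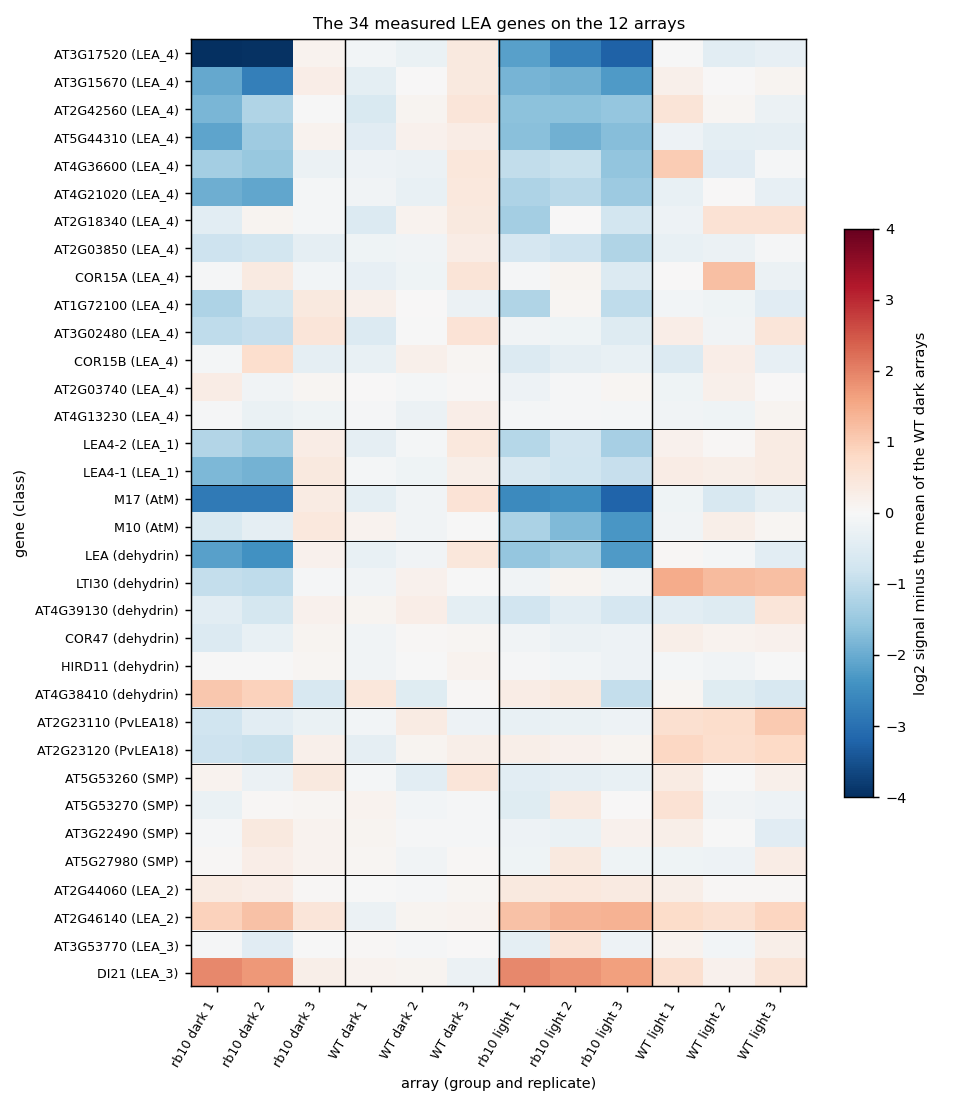
Heat map of the 34 measured LEA genes (rows, grouped by class) on the 12 arrays (columns, by group and replicate), coloured by log2 signal minus the mean of the WT dark arrays. AT3G17520 and M17 are the darkest blue on rb10 dark replicates 1 and 2, DI21 is red on the same arrays, and rb10 dark replicate 3 is pale like the WT dark arrays.

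After 1 h of light, 12 of the 34 measured LEA genes differed between rb10 and WT (limma), 10 lower and 2 higher in rb10, against 19.2% of all tested probe sets called in either direction, 9.47% lower and 9.72% higher. The median difference of the members was -0.51 in log2, against -0.02 over all probe sets. Below zero lay 28 of the 34 members, against 52% of all probe sets. On 20 of the 34 members the rb10 light arrays did not overlap the WT light arrays, as on 38.6% of all probe sets. Without rb10 dark replicate 3, which enters this comparison only through the shared estimate of spread, 19 members were called, 16 lower and 3 higher, against 23.6% of all probe sets (11.8% in each direction), and 18 were called when the light arrays alone were fitted, against 19.7% in that fit. Setting the arrays to equal medians moved the median of all probe sets by -0.15, and 1160 probe sets were then called higher and 2656 lower, against 1700 and 1655 as deposited, while the members' calls became 1 higher and 12 lower. The count of 12, or 35.3% of the members, also changed when 1 array was left out. It was 7 without WT dark replicate 2 (20.6%, against 17.4% of all probe sets). It was 5 without rb10 light replicate 1, rb10 light replicate 2, WT light replicate 1 or WT light replicate 2, and 4 without rb10 light replicate 3 or WT light replicate 3. In those 6 fits the members' share was 11.8 to 14.7%, against 12.2 to 14.4% of all probe sets, which is near the background. Each of these fits had 1 light array fewer and kept rb10 dark replicate 3 in the shared estimate of spread. Over the 12 fits that left out 1 array, the difference of AT3G15670 stayed between -2.18 and -1.97. That of AT4G36600 ran between -1.64 and -0.91. LTI30, AT2G23110 and M10 were called in each of the 12 fits that left out 1 array.

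In the dark none of the 34 members was called between rb10 and WT in the limma fit of every array under its label. The share of all probe sets called was 0.00572%. Before adjustment 14 of the 34 were under 0.05, as were 14.9% of all probe sets. Leaving out rb10 dark replicate 3 gave 16 called members, of which 14 read lower in rb10 and 2 higher, against 10.1% of all probe sets in either direction, 4.39% lower and 5.68% higher. The median of the members was then -0.52, against -0.03 over all probe sets. With every array those medians were -0.28 and -0.02. The dark and light comparisons share no arrays but do share the estimate of spread. In the fit without replicate 3, 14 members were called lower in both, as were 3.1% of all probe sets, out of 14 lower in the dark and 16 lower after light. The plot of genotype differences shows each member in both.

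**Figure D2:**
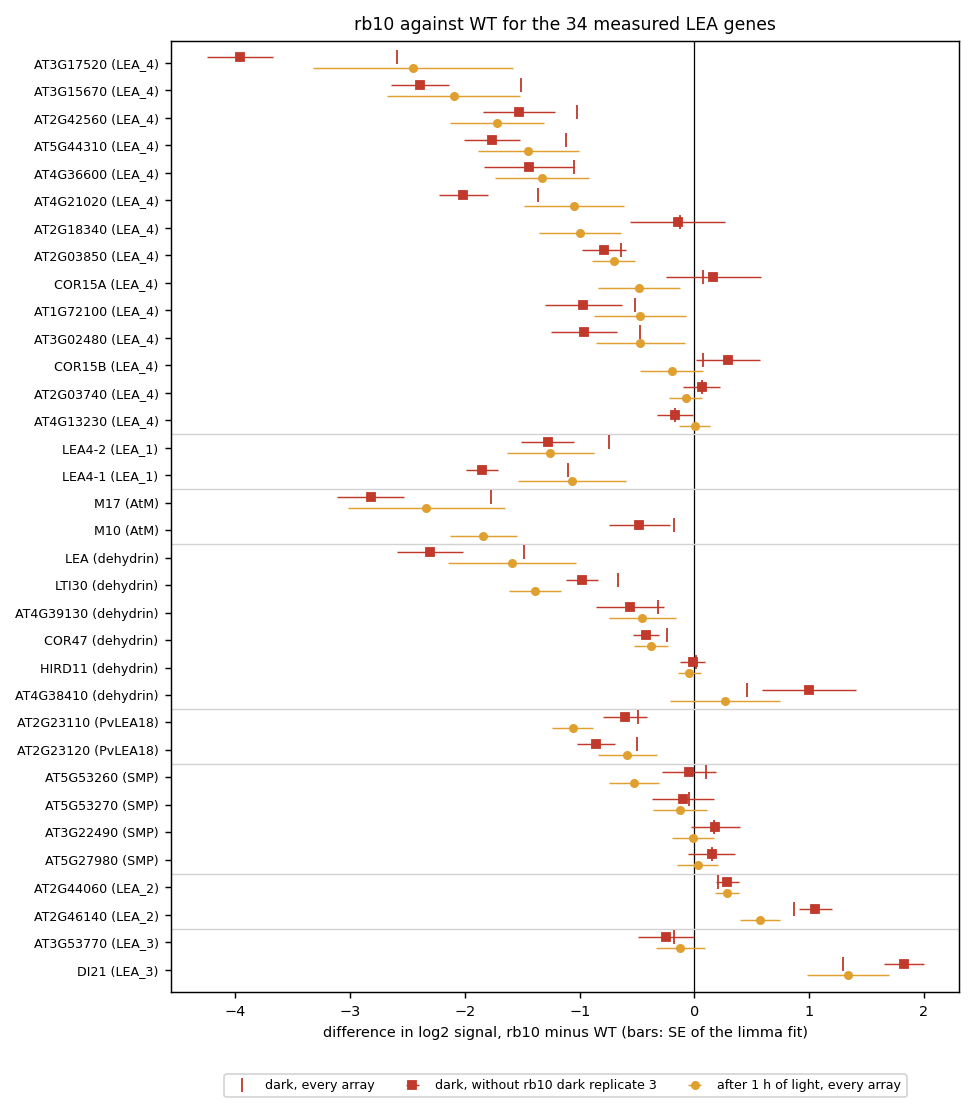
Difference in log2 signal, rb10 minus WT (horizontal axis), for each of the 34 measured LEA genes (vertical axis, grouped by class), in the dark without rb10 dark replicate 3 (squares with SE), in the dark with every array (ticks) and after 1 h of light with every array (circles with SE). AT3G17520 lies farthest left at -3.96 in the dark and DI21 farthest right at 1.83, and for both genes the tick with every array stands nearer to zero.

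Set side by side, the classes differed in sign and size, as a description with no test between them. The AtM pair had the lowest class median after light, -2.09, and -1.65 in the dark without replicate 3. That dark median lay between M17 at -2.82 and M10, which was not called, at -0.48. LEA_1 followed at -1.16 after light and -1.56 in the dark. LEA_4 and PvLEA18 had medians of -0.85 and -0.82 after light, with -0.96 and -0.73 in the dark. The dehydrins spread widely around -0.42 after light, between -1.59 and 0.27, and had -0.49 in the dark. SMP lay near zero at -0.07 after light and 0.05 in the dark. LEA_2, at 0.43 and 0.67, and LEA_3, at 0.61 and 0.79, had medians above zero in both conditions, and each rested on 2 genes. The LEA_3 medians are midpoints of genes with opposite signs. DI21 had 1.34 after light and 1.83 in the dark without replicate 3, and the dim AT3G53770 had -0.12 and -0.25. With every array the dark class medians kept the signs they had without replicate 3 and ran between -0.97 for AtM and 0.56 for LEA_3.

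Among the 14 measured LEA_4 genes, 5 were lower in rb10 after light, against 9.47% of all probe sets, and 0 higher (class median -0.85). Without rb10 dark replicate 3, 7 were lower in each of the dark and light comparisons (class median -0.96 in the dark). The shares of all probe sets lower were then 4.39% in the dark and 11.8% after light. AT3G17520 had the largest difference of the family. It read 4.86, 4.90 and 8.99 in rb10 dark and 8.74, 8.56 and 9.22 in WT dark, then 6.68, 6.10 and 5.61 in rb10 light and 8.81, 8.43 and 8.50 in WT light. The first and second rb10 dark arrays and all rb10 light arrays lay below every WT array, while rb10 dark replicate 3 lay among the WT dark arrays. The dark difference was -3.96 (SE 0.29, adjusted p = 6.76e-05) without that array and -2.59 (SE 0.87, adjusted p = 0.255) with it, so that without it the gene read 15.6-fold lower in rb10. After light the difference was -2.45 (SE 0.87, adjusted p = 0.0736), and with that array left out the SE was 0.26 and the gene was called (adjusted p = 0.000137).

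AT3G15670, another LEA_4 gene, read 6.41, 5.74 and 8.72 in rb10 dark and 8.07, 8.48 and 8.86 in WT dark, with 6.62, 6.56 and 6.21 in rb10 light and 8.66, 8.47 and 8.57 in WT light. The light groups did not overlap, and neither did the dark groups once replicate 3 was set aside. The difference was -2.10 (SE 0.58, adjusted p = 0.028) after light and -2.39 (SE 0.25, adjusted p = 0.000431) in the dark without that array, against -1.51 (SE 0.58, adjusted p = 0.284) with it. The light call was lost without any 1 of the 6 light arrays. AT4G21020 read 5.82, 5.69 and 7.70 in rb10 dark and 7.64, 7.47 and 8.20 in WT dark, with 6.52, 6.70 and 6.32 in rb10 light and 7.47, 7.79 and 7.43 in WT light. Its light groups were apart too, but the call after light came only without rb10 dark replicate 3, at -1.05 (SE 0.19, adjusted p = 0.00319), against an adjusted p = 0.12 with every array. The dark difference was -2.01 (SE 0.21, adjusted p = 0.000458) without replicate 3 and -1.37 (SE 0.43, adjusted p = 0.255) with it.

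Of the LEA_4 genes with weaker signal, AT2G42560 read 3.42, 4.04 and 5.24 in rb10 dark and 4.66, 5.36 and 5.75 in WT dark, with 3.62, 3.62 and 3.71 in rb10 light and 5.77, 5.34 and 5.01 in WT light. The 3 rb10 light arrays lay close together and below all WT light arrays, for a difference of -1.72 (SE 0.41, adjusted p = 0.0146). This call was lost without WT light replicate 1. Dark values gave -1.53 (SE 0.32, adjusted p = 0.0155) without replicate 3 and -1.02 (SE 0.41, adjusted p = 0.297) with it. AT5G44310 was one of the 6 members in the lowest 25% by signal, and read 3.05, 3.75 and 5.32 in rb10 dark and 4.72, 5.33 and 5.45 in WT dark, with 3.48, 3.25 and 3.46 in rb10 light and 4.96, 4.77 and 4.80 in WT light. Here again replicate 3 read like WT and the light groups did not overlap. Its differences were -1.45 (SE 0.44, adjusted p = 0.0424) after light and -1.76 (SE 0.24, adjusted p = 0.00203) in the dark without replicate 3, against -1.12 (adjusted p = 0.288) with it. The light call was lost in 9 of the 12 fits that left out 1 array, namely without rb10 dark replicate 2, WT dark replicate 2, WT dark replicate 3 or any 1 of the 6 light arrays.

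AT4G36600 read 4.53, 4.37 and 5.65 in rb10 dark and 5.69, 5.65 and 6.34 in WT dark, with 4.90, 5.01 and 4.31 in rb10 light and 6.90, 5.44 and 5.86 in WT light. Every rb10 light array was below the WT light arrays, whose first replicate stood above the other two. The difference after light was -1.33 (SE 0.41, adjusted p = 0.0461), and -0.91 without WT light replicate 1. It lost its call in 9 of the 12 fits that left out 1 array, all but those without rb10 dark replicate 2, rb10 dark replicate 3 or WT light replicate 2, and also with the light groups alone (adjusted p = 0.0546). The dark difference was -1.45 (SE 0.39, adjusted p = 0.0462) without replicate 3 and -1.05 (SE 0.41, adjusted p = 0.29) with it. AT2G03850 differed least of the 7, with 6.81, 6.91 and 7.30 in rb10 dark and 7.47, 7.51 and 7.96 in WT dark, and 6.97, 6.82 and 6.44 in rb10 light and 7.34, 7.41 and 7.61 in WT light. Its groups did not overlap in either condition, replicate 3 included. The differences were -0.71 (SE 0.19, adjusted p = 0.0242) after light and -0.79 (SE 0.19, adjusted p = 0.0302) in the dark without replicate 3, or -0.64 (SE 0.19, adjusted p = 0.249) with it. The light call was lost without rb10 light replicate 2, rb10 light replicate 3, WT light replicate 2 or WT light replicate 3.

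The other 7 LEA_4 genes were not called between the genotypes in either condition, with or without the doubted array. COR15A and COR15B encode chloroplast proteins that shield membranes in freezing leaves. They are neighbours on the chromosome with like sequences, whose probes may share signal, and both lay in the lowest 25% by signal. COR15A differed by -0.48 (SE 0.36, adjusted p = 0.397) after light and COR15B by -0.20 (SE 0.27, adjusted p = 0.669). In the dark they went the other way, COR15A by 0.16 and COR15B by 0.29 without replicate 3, against 0.07 and 0.07 with it. AT2G03740 (-0.08) and AT4G13230 (0.00044) were near zero after light, whereas AT1G72100 and AT3G02480 had fitted differences of -0.47 and -0.47. AT3G02480 gave -0.96 (SE 0.29, adjusted p = 0.0665) without replicate 3 and -0.47 (SE 0.39, adjusted p = 0.595) with it in the dark. There AT1G72100 gave -0.97 (SE 0.34, adjusted p = 0.107) without replicate 3 and -0.52 (SE 0.40, adjusted p = 0.57) with it. The dark differences of AT2G03740 and AT4G13230 were 0.06 and -0.17 without replicate 3. For AT2G18340, the one member with a pair of probe sets, the brighter gave -1.0 (SE 0.36, adjusted p = 0.0744) after light and the dimmer -1.03 (SE 0.30, adjusted p = 0.0352), so that only the dimmer was called, while the dark differences were -0.15 and -0.59 without replicate 3 and -0.13 and -0.60 with it.

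Both measured LEA_1 genes, of a class made in seeds and in water-stressed plants, were lower in rb10. LEA4-1 (AT1G32560) read 7.73, 7.63 and 9.91 in rb10 dark and 9.45, 9.36 and 9.78 in WT dark, with 8.90, 8.74 and 8.62 in rb10 light and 9.84, 9.77 and 9.86 in WT light. Replicate 3 read above all WT dark arrays, and the light groups were apart by more than the whole spread of either. The dark difference was -1.85 (SE 0.14, adjusted p = 8.47e-05) without replicate 3 and -1.10 (SE 0.47, adjusted p = 0.309) with it. The light difference was -1.07 (SE 0.12, adjusted p = 0.00025) without that array and was not called with it (adjusted p = 0.141). LEA4-2 (AT2G35300, also LEA18) read 9.29, 9.07 and 10.77 in rb10 dark and 10.11, 10.38 and 10.89 in WT dark, with 9.32, 9.69 and 9.14 in rb10 light and 10.62, 10.50 and 10.80 in WT light. All rb10 arrays but replicate 3 lay below all WT arrays. The difference after light was -1.26 (SE 0.38, adjusted p = 0.0409), a call lost without WT dark replicate 2 or any 1 of the 6 light arrays, and -1.28 (SE 0.23, adjusted p = 0.00821) without replicate 3 and -0.75 (SE 0.38, adjusted p = 0.379) with it in the dark.

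M17 (AT2G41260) and M10 (AT2G41280) are neighbouring genes, with no other protein-coding gene between them in the reference table, and were both called lower in rb10 after light. M17 read 8.87, 8.86 and 12.01 in rb10 dark and 11.29, 11.54 and 12.23 in WT dark, with 9.15, 9.24 and 8.47 in rb10 light and 11.50, 11.05 and 11.32 in WT light. All rb10 arrays other than dark replicate 3 lay below all WT arrays. It differed by -2.34 (SE 0.69, adjusted p = 0.0364) after light and by -2.82 (SE 0.29, adjusted p = 0.000422) in the dark without replicate 3, that is 7.06-fold lower, against -1.77 (adjusted p = 0.287) with it. Its light call was lost without WT dark replicate 2 or without any 1 of the 6 light arrays. M10 read 6.75, 7.01 and 7.79 in rb10 dark and 7.51, 7.22 and 7.35 in WT dark, with 6.11, 5.61 and 5.02 in rb10 light and 7.22, 7.60 and 7.43 in WT light. Its first and second dark rb10 readings were not far below WT, and the 3 rb10 light readings were the lowest of the 12. The difference was -1.84 (SE 0.29, adjusted p = 0.00202) after light and -0.48 (SE 0.27, adjusted p = 0.302) in the dark without replicate 3, against -0.18 (adjusted p = 0.814) with it, so the dark difference was not called.

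Of the 6 measured dehydrins 1 was lower in rb10 after light, against 9.47% of all probe sets. Without rb10 dark replicate 3, 3 were lower in each condition, against 4.39% of all probe sets in the dark and 11.8% after light. The dehydrin gene named LEA (AT2G21490) read 5.50, 5.24 and 7.83 in rb10 dark and 7.37, 7.54 and 8.11 in WT dark, with 6.11, 6.29 and 5.40 in rb10 light and 7.73, 7.59 and 7.25 in WT light. Replicate 3 fell inside the WT dark range and the light groups did not meet. The dark difference was -2.30 (SE 0.29, adjusted p = 0.00128) without replicate 3 and -1.48 (SE 0.56, adjusted p = 0.279) with it. After light it was -1.59 (SE 0.26, adjusted p = 0.00168) without that array and was not called with every array (adjusted p = 0.0703). LTI30 (AT3G50970, also XERO2), a dehydrin that binds membranes and is induced by cold and ABA, read 8.76, 8.69 and 9.67 in rb10 dark and 9.55, 9.88 and 9.68 in WT dark, with 9.55, 9.80 and 9.55 in rb10 light and 11.18, 10.97 and 10.92 in WT light. The rb10 light arrays overlapped the WT dark arrays and stood more than 1 log2 unit under the WT light arrays. The difference was -1.39 (SE 0.23, adjusted p = 0.00226) after light and -0.98 (SE 0.14, adjusted p = 0.00221) without replicate 3 and -0.67 (SE 0.23, adjusted p = 0.255) with it in the dark.

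COR47 (AT1G20440), a cold-induced acidic dehydrin, read 11.51, 11.75 and 12.16 in rb10 dark and 11.91, 12.09 and 12.14 in WT dark, with 11.90, 11.83 and 11.86 in rb10 light and 12.30, 12.20 and 12.22 in WT light. Its light groups did not overlap, but the shift was small, -0.38 (SE 0.10, adjusted p = 0.0226) after light without replicate 3 and not called with every array (adjusted p = 0.103). In the dark it was -0.42 (SE 0.11, adjusted p = 0.0449) without replicate 3 and -0.24 (SE 0.15, adjusted p = 0.466) with it. HIRD11, a histidine-rich dehydrin that binds metals, differed by -0.04 (SE 0.10, adjusted p = 0.817) after light and -0.02 (SE 0.11, adjusted p = 0.949) in the dark without that array, against 0.01 with it. AT4G39130 (-0.45 after light) and AT4G38410 (0.27) were not called either. In the dark AT4G38410 had 1.00 (SE 0.41, adjusted p = 0.162) without replicate 3 and 0.45 (SE 0.48, adjusted p = 0.695) with it, and AT4G39130 had -0.56 without replicate 3 and -0.32 with it.

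The PvLEA18 pair, AT2G23110 and AT2G23120, are also neighbouring genes. AT2G23110 read 4.80, 5.18 and 5.34 in rb10 dark and 5.48, 5.92 and 5.40 in WT dark, with 5.29, 5.33 and 5.38 in rb10 light and 6.24, 6.29 and 6.65 in WT light. The WT light arrays were the 3 highest of the 12. Its difference was -1.06 (SE 0.18, adjusted p = 0.00268) after light and -0.60 (SE 0.19, adjusted p = 0.0745) in the dark without replicate 3, where it was not called, against -0.49 (adjusted p = 0.271) with it. AT2G23120 had 11.11, 11.05 and 12.14 in rb10 dark and 11.58, 12.05 and 12.18 in WT dark, with 12.17, 12.11 and 12.04 in rb10 light and 12.76, 12.60 and 12.72 in WT light. As in its neighbour, all WT light arrays lay above all others. Calls for AT2G23120 came only without replicate 3, at -0.58 (SE 0.15, adjusted p = 0.0159) after light (adjusted p = 0.143 with every array). Its dark difference was -0.86 (SE 0.16, adjusted p = 0.0103) without replicate 3 and -0.50 (SE 0.26, adjusted p = 0.384) with it.

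The genes that were higher in rb10 belonged to LEA_3 and LEA_2. DI21 (AT4G15910), a drought-induced gene of the LEA_3 class, read 10.40, 10.19 and 8.69 in rb10 dark and 8.60, 8.58 and 8.23 in WT dark, with 10.38, 10.26 and 10.10 in rb10 light and 9.10, 8.64 and 8.99 in WT light. All rb10 light arrays lay above all WT arrays, and replicate 3 read near WT. It was higher by 1.34 (SE 0.36, adjusted p = 0.0245) after light and by 1.83 (SE 0.17, adjusted p = 0.000235) in the dark without replicate 3, against 1.29 (adjusted p = 0.245) with it. The light call was lost without any 1 of the rb10 light arrays, WT light replicate 2 or WT light replicate 3. AT2G46140 (LEA27) of LEA_2 read 8.12, 8.37 and 7.69 in rb10 dark and 6.97, 7.29 and 7.32 in WT dark, with 8.35, 8.54 and 8.58 in rb10 light and 7.92, 7.80 and 8.04 in WT light. Here even replicate 3 exceeded the WT dark arrays. Its differences were 0.57 (SE 0.17, adjusted p = 0.0394) after light and 1.05 (SE 0.15, adjusted p = 0.00218) in the dark without replicate 3, against 0.87 (adjusted p = 0.218) with it. Its light call was lost without rb10 dark replicate 1, WT dark replicate 2 or any 1 of the 6 light arrays, and also when the arrays were quantile normalized again (adjusted p = 0.0574) or set to equal medians (adjusted p = 0.071).

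AT2G44060 (LEA26), the other measured LEA_2 gene, read 9.96, 9.91 and 9.68 in rb10 dark and 9.62, 9.60 and 9.72 in WT dark, with 10.04, 10.08 and 10.02 in rb10 light and 9.89, 9.70 and 9.69 in WT light. Its groups were apart after light by little, and it was called only without replicate 3, at 0.29 (SE 0.09, adjusted p = 0.0432), against an adjusted p = 0.0793 with every array. Its dark difference was 0.29 (SE 0.10, adjusted p = 0.107) without replicate 3 and 0.20 (SE 0.10, adjusted p = 0.387) with it. Equal array medians moved the median of all probe sets after light by -0.15, which is large beside the 0.29 of this gene. The second LEA_3 gene, AT3G53770, lay in the lowest 25% by signal and differed by -0.12 (SE 0.21, adjusted p = 0.743). None of the 4 SMP genes, whose proteins gather in ripening seeds, was called in any comparison with or without replicate 3, and their differences after light ran between -0.53 (AT5G53260) and 0.03 (AT5G27980). AT3G22490 differed by -0.01 (SE 0.18, adjusted p = 0.98) and AT5G53270 by -0.12 (SE 0.24, adjusted p = 0.77). Counting all 5 comparisons, 15 of the 34 measured members were called in none of them with or without replicate 3. The same share was not computed over all probe sets, so this count is a description only. Whether one class differed from another was not tested.

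**Figure D3:**
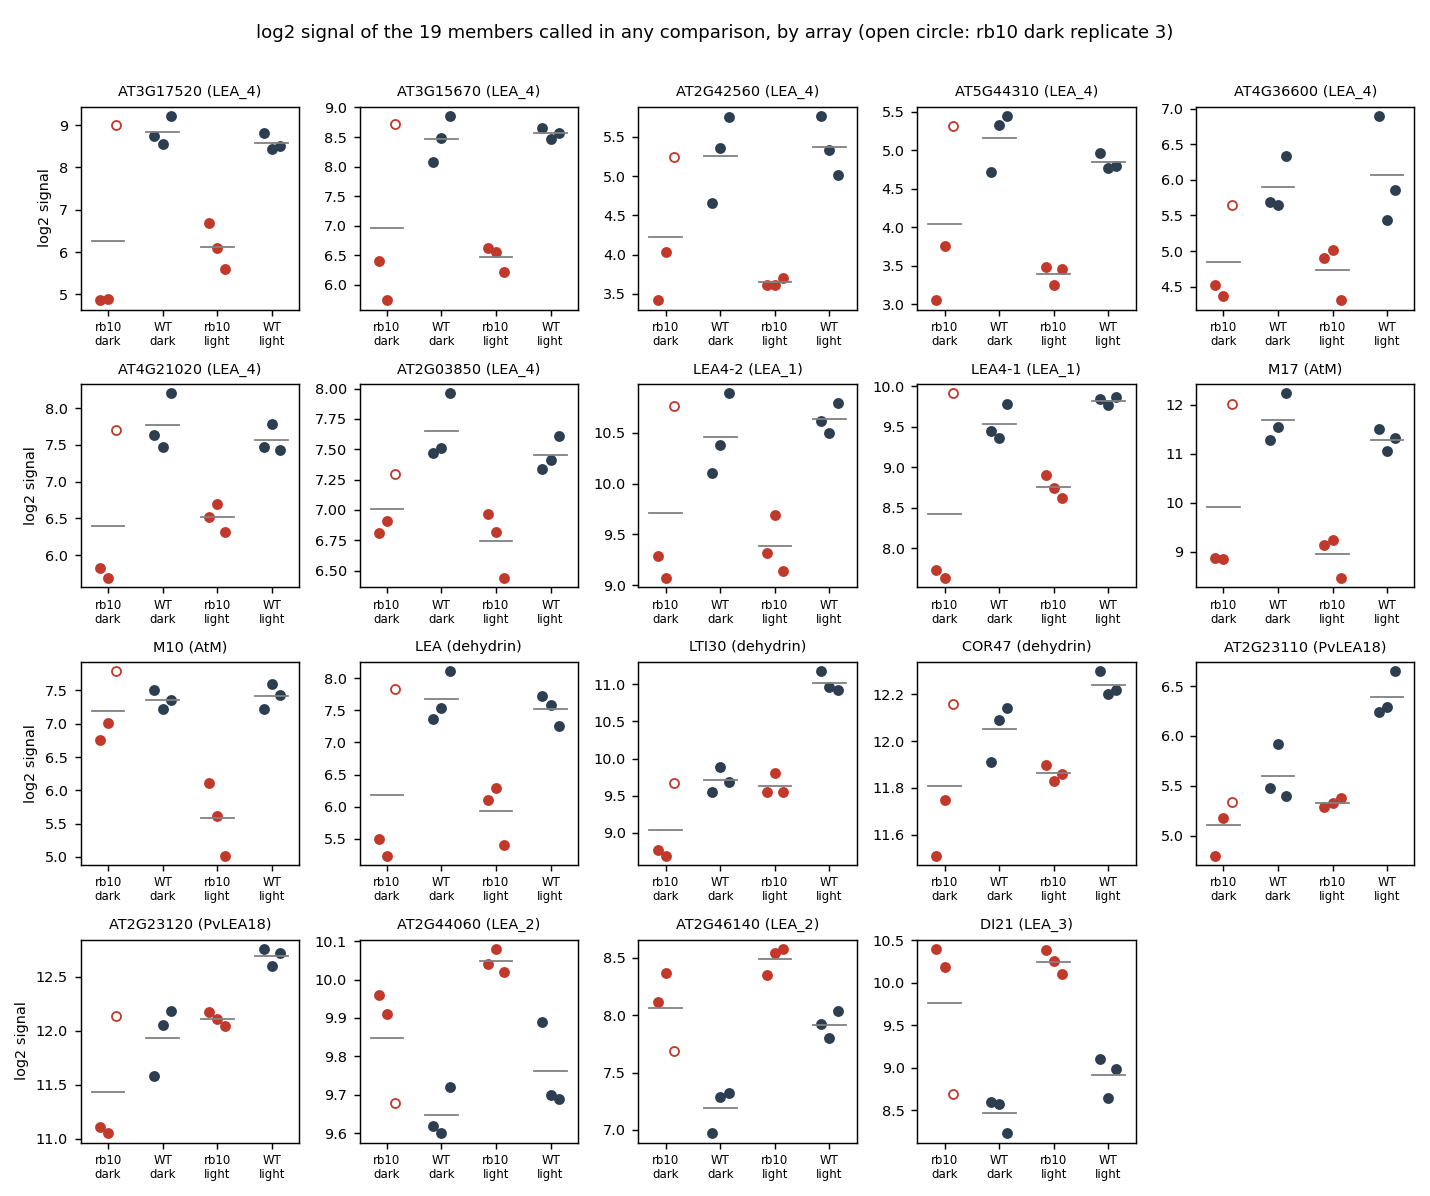
log2 signal (vertical axes) of the 19 LEA genes called in any comparison with or without rb10 dark replicate 3, by group (horizontal axes, red for rb10 and dark blue for WT), 1 point an array with group means as grey lines and rb10 dark replicate 3 as an open circle. In AT3G17520, M17 and LEA4-1 the open circle lies with the WT dark points and the other rb10 points lie below, while in LTI30 and AT2G23120 the WT light points stand highest.

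The light comparisons asked how far 1 h of white light moved the LEA genes. In rb10 1 of 34 members was called with every array, lower after light, against 7.17% of all probe sets in either direction and 3.75% lower (limma). Leaving out rb10 dark replicate 3 gave 5 calls, 4 higher and 1 lower, against 6.34% in either direction, 3.17% higher and 3.16% lower. In WT 3 were called, all higher after light, against 6.89% of all probe sets in either direction and 4.62% higher. Without that rb10 array the WT count was 4, against 8.78% in either direction and 5.3% higher. The WT count was 1 without WT dark replicate 1 (5.33% of all probe sets) and 1 without WT light replicate 3 (5.15%). In rb10 the members' median was -0.14 with every array, with 21 of 34 below zero, and 0.09 without replicate 3, with 15 below zero, so its sign turned on that array. The median over all probe sets was -0.03 and -0.02 in those fits, where 54.1% and 53.6% of all probe sets lay below zero. In WT the members' median was 0.09, against -0.06 over all probe sets.

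LTI30 rose most in WT, by 1.32 (SE 0.23, adjusted p = 0.00407). In rb10 it rose by 0.91 (SE 0.14, adjusted p = 0.00329) without replicate 3, and with every array the value was 0.60 (SE 0.23, adjusted p = 0.164). Both PvLEA18 genes rose in WT, AT2G23110 by 0.80 (SE 0.18, adjusted p = 0.0202) and AT2G23120 by 0.76 (SE 0.15, adjusted p = 0.00952) when replicate 3 was left out (adjusted p = 0.124 with it). AT2G23120 rose in rb10 too, by 1.03 (SE 0.16, adjusted p = 0.0045) without replicate 3, against 0.67 (adjusted p = 0.168) with it. AT2G23110 had 0.34 (SE 0.19, adjusted p = 0.413) without replicate 3 and 0.22 (SE 0.18, adjusted p = 0.555) with it in rb10. AT2G46140 rose in WT by 0.73 (SE 0.17, adjusted p = 0.0267) and had 0.24 (SE 0.15, adjusted p = 0.457) without replicate 3 and 0.43 (SE 0.17, adjusted p = 0.187) with it in rb10. The call of AT2G23110 in WT was lost without WT dark replicate 1, WT dark replicate 3 or WT light replicate 3, and that of AT2G46140 without WT dark replicate 1, WT dark replicate 2, WT light replicate 1 or WT light replicate 3.

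M10 alone among the members was called lower after light in rb10, at -1.61 (SE 0.29, adjusted p = 0.0069) with every array and -1.30 (SE 0.27, adjusted p = 0.0178) without replicate 3, and in WT its difference was 0.06 (SE 0.29, adjusted p = 0.948). Its neighbour M17 had 0.09 (SE 0.29, adjusted p = 0.929) without replicate 3 and -0.96 (SE 0.69, adjusted p = 0.502) with it in rb10. A pair of LEA genes that read low in dark rb10 rose with light there when replicate 3 was left out, AT3G17520 by 1.25 (SE 0.29, adjusted p = 0.0316) and LEA4-1 by 1.07 (SE 0.14, adjusted p = 0.00147). With every array these were -0.12 (SE 0.87, adjusted p = 0.961) and 0.33 (SE 0.47, adjusted p = 0.772), since replicate 3 raised the dark mean of AT3G17520 to 6.25, against 4.88 without it. In WT the same genes had -0.26 and 0.29.

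**Figure D4:**
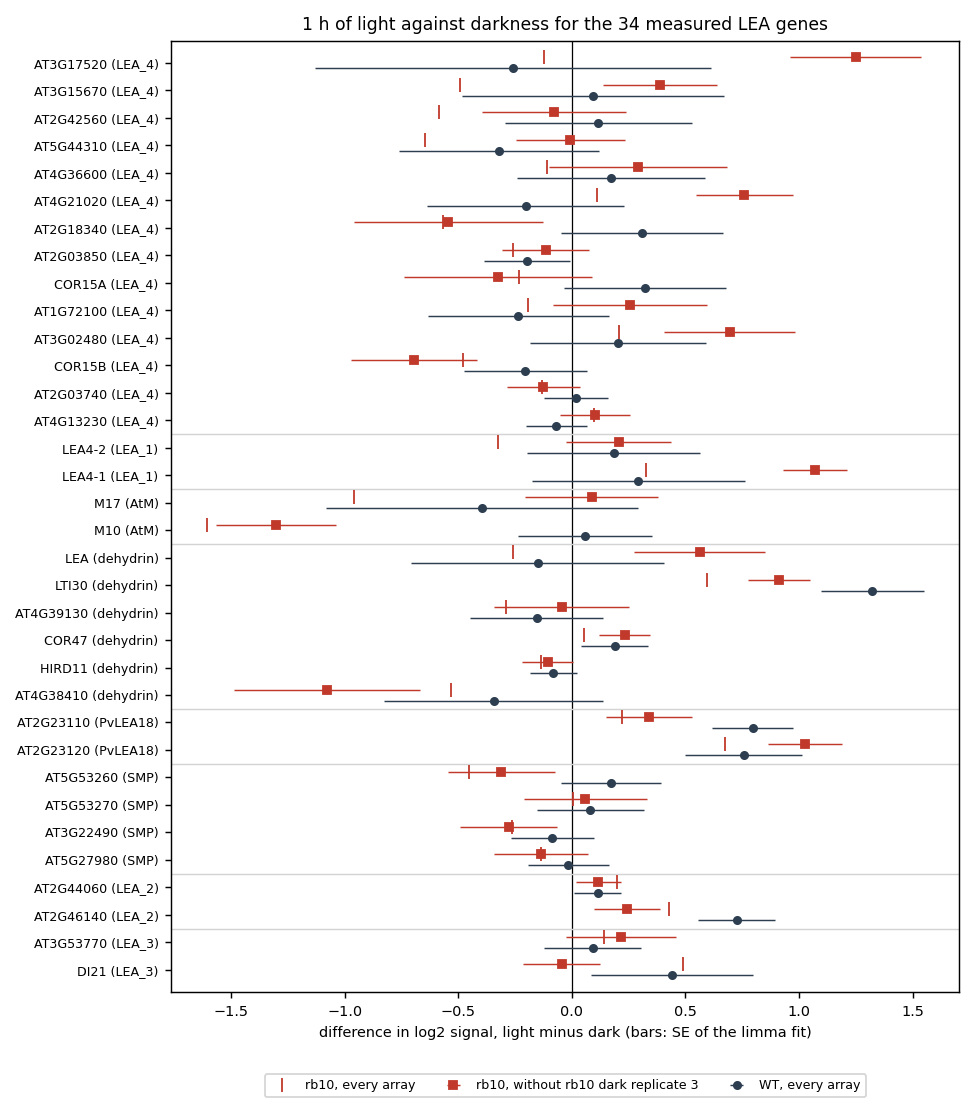
Difference in log2 signal, light minus dark (horizontal axis), for the 34 measured LEA genes (vertical axis, grouped by class), in rb10 without rb10 dark replicate 3 (squares with SE), in rb10 with every array (ticks) and in WT with every array (circles with SE). LTI30 lies farthest right in WT at 1.32 and M10 farthest left in rb10, at -1.61 with every array.

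The difference of the light effects between rb10 and WT was not called for any of the 34 members with every array (limma), where the share of all probe sets called was 2.17%. Before adjustment 3 of the 34 were under 0.05, as were 12.6% of all probe sets. Without replicate 3 the count was again 0, against 2.25% of all probe sets, and 6 were under 0.05 before adjustment, as were 12.9% of all probe sets. With every array M10 had the largest difference of the light effects, -1.66 (SE 0.42, adjusted p = 0.0753), against -1.36 without replicate 3. LTI30 had -0.73 (SE 0.32, adjusted p = 0.375), against -0.41 without it. Without replicate 3 the largest was that of AT3G17520, 1.51 (SE 0.39, adjusted p = 0.0946), against 0.14 with it. The light responses given above for one genotype were not shown to differ from those of the other.

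Few genes of the surrounding pathway could be paired. Of 22 regulators of LEA genes 1 was measured, EEL (AT2G41070), a bZIP factor that acts on the promoter of the LEA gene EM1 in seeds. It read 8.09, 8.13 and 8.14 in rb10 dark and 7.99, 8.23 and 8.15 in WT dark, with 7.31, 7.38 and 6.89 in rb10 light and 7.73, 7.90 and 7.54 in WT light. The dark groups overlapped, and after light all rb10 arrays lay below WT, with a difference of -0.53 (SE 0.14, adjusted p = 0.0261). With light EEL fell in rb10, at -0.92 (SE 0.17, adjusted p = 0.00913) without replicate 3 and -0.93 (SE 0.14, adjusted p = 0.00257) with it, and had -0.40 (SE 0.14, adjusted p = 0.151) in WT. The 14 ABA receptors, 9 ABA phosphatases and 5 SnRK2 kinases listed were not analysed here.

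Of 11 other cold and dehydration genes 3 were measured. AT4G25580, a gene related to the cold-acclimation protein CAP160, read 12.09, 11.92 and 11.74 in rb10 dark and 11.78, 11.75 and 11.88 in WT dark, with 10.93, 10.63 and 10.73 in rb10 light and 11.72, 11.74 and 11.68 in WT light. The rb10 light arrays stood alone below all others, with a difference from WT of -0.95 (SE 0.12, adjusted p = 0.000483) and a difference of the light effects of -1.15 (SE 0.15, adjusted p = 0.00709) without replicate 3 and -1.06 (SE 0.16, adjusted p = 0.00854) with it. KIN1 and KIN2 are cold-induced, neighbouring genes of very like sequence whose probes may share signal. KIN2 rose with light in rb10, by 2.8 (SE 0.35, adjusted p = 0.00106) without replicate 3 and 2.21 (SE 0.47, adjusted p = 0.0155) with it. In WT its difference was 1.53 (SE 0.47, adjusted p = 0.0851) with every array, and it was called without replicate 3 (adjusted p = 0.0129). KIN1 had 0.06 in rb10 with every array and 0.32 without replicate 3. In WT it had 0.62 (SE 0.21, adjusted p = 0.127) with every array and was called without replicate 3 (adjusted p = 0.03). Between rb10 and WT, KIN2 differed by -0.06 (SE 0.47, adjusted p = 0.954) after light and by -1.33 (SE 0.35, adjusted p = 0.0403) without replicate 3 and -0.74 (SE 0.47, adjusted p = 0.479) with it in the dark.

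Genes of stored seed reserves were listed as signs of seed RNA. Of 18 storage protein and oil body genes 3 were measured, and none was called between the genotypes with every array. OLEO3, an oil body oleosin, read 8.48, 8.63 and 7.09 in rb10 dark and 7.58, 7.23 and 7.92 in WT dark, with 8.03, 8.10 and 8.09 in rb10 light and 6.62, 7.08 and 7.68 in WT light. It was higher in rb10 after light by 0.95 (SE 0.25, adjusted p = 0.0207) without replicate 3, and not called with every array (adjusted p = 0.109). The cruciferin gene AT1G03890 and the oleosin gene AT3G01570 differed by -0.31 and 0.17. Of the tissue markers, 2 of 7 root hair genes and 1 of 7 mesophyll genes could be paired, and the 7 endodermis genes and the 1 endosperm gene were not analysed here. RCA, Rubisco activase of green tissue, was higher in rb10 after light by 0.48 (SE 0.11, adjusted p = 0.0129), and the root hair expansins EXPA7 and EXPA18 differed by 0.41 and 0.68 without a call. The part of tissue make-up in the LEA values was not tested.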

How the data were processed

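Total RNA from pools of whole seedlings was labelled and hybridised to 12 Affymetrix Arabidopsis arrays, 3 for each of 4 groups, per the labels' protocols. The deposited table holds the authors' log2 signal of 38408 probe sets on these arrays. RMA and GCRMA are named, without a version, in the submitters' processing notes, and which of them gave the values is not given in the sources used here. Both summarise a probe set on a log2 scale after background correction and quantile normalization, and differences of dim probe sets depend on that correction. Array medians ran between 6.72 and 6.91, and were higher on the rb10 arrays other than dark replicate 3 than on the WT arrays. Precision is limited by the small number of arrays.

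Probe sets were named through the platform annotation, of which 16722 carried 1 locus, 759 carried several and 20927 none. All 17481 with a gene were tested with limma 3.58.1 in R 4.3.3 (lmFit and eBayes on 4 group means, 8 residual degrees of freedom), with Benjamini-Hochberg adjustment within each of 5 comparisons and calls at an adjusted p under 0.05. The procedure was tested on simulated data. Where a locus had several probe sets, the one with the highest mean stood for it. The design assumed log2 values, as the files hold.

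The members, the gene lists and the array that was doubted were chosen with earlier results of these data known. The rule for named genes was that each measured member is accounted for, those called in any comparison with their value on every array, plus the called members of each list or the one with the smallest p. No p was adjusted over the members alone. The labels name no pairing, and the main fit did not pair arrays by replicate number. Deviations from the group means of 18 pairs with the same number correlated between -0.0433 and 0.0734. The rb10 dark mean includes the doubted array, and pairs with different numbers were not set beside these. The correlations therefore cannot decide whether arrays of the same number belong together. Results were recomputed with only the groups compared, with the replicate number as a block, after renewed quantile normalization, with equal array medians, without the dimmest 25% of probe sets, over every probe set, with another prior, with a fold of 2, by the mean of a locus's probe sets, and leaving out each array in turn. Neighbouring genes were read from the RefSeq gene table of TAIR10.1 and no coordinates are given.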

Additional observations from a re-analysis of the deposited data

How the results depend on the processing

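With 1 array left out in turn, the members called numbered 0 to 16 in the dark (0 to 10.1% of all probe sets), 4 to 19 after light (12.2 to 23.6%), 1 to 5 for light in rb10 (4.47 to 6.6%), 1 to 4 for light in WT (4.8 to 8.78%) and 0 to 1 for the difference of the light effects (1.19 to 2.25%). The highest values came without rb10 dark replicate 3 except for the last, which came without rb10 light replicate 1. When every probe set was tested, the count after light was 7, against 12, with 16.3% of all probe sets called. Light in rb10 gave 0, against 1, with its groups alone (3.32%), light in WT gave 1, against 3, with a fold of 2 (3.17%), and the difference of the light effects gave 1, against 0, with a trended and robust prior (3.06%). The cause was not tested. With the replicate number as a block the counts were 0, 11, 1, 3 and 0 in the same order, and AT4G36600 and AT2G46140 were among the calls lost after light. None of the recomputed differences of members called with every array changed sign, though many settings cannot change the estimate. AT3G17520, called for light in rb10 only without rb10 dark replicate 3, had 1.25 without it and -0.12 with it. The 255 recomputed class medians covered LEA_4, SMP and the dehydrins only, and many settings cannot move them. For light in rb10, leaving out replicate 3 took the LEA_4 median from -0.21 to 0.05 and the dehydrin median from -0.20 to 0.09. The SMP median was -0.20 with every array and -0.21 without replicate 3. Signal over background is not given in the deposited values, which limits what dim members such as AT5G44310 can show.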
